A study of Homo sapiens with 12 samples.

Results

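The phagocyte NADPH oxidase is the enzyme with which neutrophils and macrophages make superoxide from oxygen. The genes described are NCF1, NCF4, CYBA, CYBB and RAC2, which encode subunits of the enzyme. They were chosen by symbol: every probe set of the array that the platform annotation gives to exactly 1 of the 5 symbols was taken. This gave 11 probe sets for 5 genes, of 19775 genes with such a probe set. One further probe set lists NCF1 together with its pseudogenes NCF1B and NCF1C and is shown apart. A probe set is a group of short probes on the array that is read as 1 value.

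ML-2 cells, an established human acute myeloid leukaemia line, were measured on 12 arrays in 4 groups of 3. Control cells received solvent only. SGI-110 (guadecitabine, a hypomethylating agent that releases decitabine) was given at 2 µM, and its single treatment is labelled 33 h. ASTX660 (an antagonist of inhibitor of apoptosis proteins) was given at 5 µM for 9 h, after 24 h with solvent. The combination received SGI-110 for 24 h and then ASTX660 for 9 h, and the sources used here do not say whether SGI-110 was still present in those 9 h. All groups are 1 cell line in culture. Per the series design there were 3 independent experiments, and each group has an array numbered 2, 9 and 13. Values are RMA log2 intensities, so a difference of 1 is a doubling of array signal, and levels are comparable between arrays but not between probe sets.

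At rest the enzyme is split between membrane and cytosol. CYBB encodes gp91phox, the catalytic chain that passes electrons from NADPH to oxygen, and CYBA encodes p22phox, which stabilises it in the membrane as cytochrome b558. NCF1 encodes p47phox, the cytosolic organiser that is phosphorylated on activation and carries the cytosolic complex to the membrane, and NCF4 encodes p40phox, which binds a phosphoinositide of the phagosome. RAC2 encodes the haematopoietic Rac GTPase, the switch that the assembled enzyme needs. Loss of function of NCF1, NCF4, CYBA or CYBB causes chronic granulomatous disease, in which phagocytes cannot kill certain microbes. In the myeloid lineage some of these genes are known to be switched on as cells mature, under PU.1 and other factors.

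The genes lie on 4 chromosomes of GRCh38.p14 as RefSeq gives them. NCF1 spans chr7:74774011-74789315, between its pseudogenes NCF1B at chr7:73220639-73235945 and NCF1C at chr7:75156578-75171998. CYBA spans chr16:88643289-88651053 and CYBB chrX:37780059-37813461. NCF4 at chr22:36861006-36878015 and RAC2 at chr22:37225270-37244269 share a chromosome, with 347 kb between them. The RefSeq promoter windows of NCF1, CYBB and CYBA are printed to show the sequence at the starts of 3 genes that were called, and those of NCF4 and RAC2 are not used here. Each window runs from 250 bases before to 50 bases after the start of the gene, on the strand of the gene, at chr7:74773761-74774060 (plus strand), chrX:37779809-37780108 (plus strand) and chr16:88651004-88651303 (minus strand). Capitals mark each match, on either strand, to GAGGAA, a purine box of the kind that PU.1 and other ETS factors are known to bind, and to CCAAT. No match of one motif overlapped a match of the other.
NCF1: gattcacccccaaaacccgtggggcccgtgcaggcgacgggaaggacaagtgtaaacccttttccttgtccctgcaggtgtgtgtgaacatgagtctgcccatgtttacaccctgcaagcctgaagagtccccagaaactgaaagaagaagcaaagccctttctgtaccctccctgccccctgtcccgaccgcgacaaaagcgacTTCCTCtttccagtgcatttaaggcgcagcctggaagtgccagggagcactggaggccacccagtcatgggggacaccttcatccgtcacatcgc
CYBB: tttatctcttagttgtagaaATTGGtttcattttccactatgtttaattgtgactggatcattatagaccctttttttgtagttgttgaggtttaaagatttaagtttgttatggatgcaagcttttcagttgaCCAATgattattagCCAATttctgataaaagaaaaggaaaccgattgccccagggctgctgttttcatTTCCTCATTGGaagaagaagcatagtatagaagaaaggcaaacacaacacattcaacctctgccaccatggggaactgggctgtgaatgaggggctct
CYBA: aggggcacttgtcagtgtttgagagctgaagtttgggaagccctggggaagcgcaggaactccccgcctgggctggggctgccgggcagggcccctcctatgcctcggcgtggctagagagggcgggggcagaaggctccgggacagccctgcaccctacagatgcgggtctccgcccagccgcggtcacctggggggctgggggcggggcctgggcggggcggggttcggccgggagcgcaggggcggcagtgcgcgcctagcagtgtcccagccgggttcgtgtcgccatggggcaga

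The purine box stood on the opposite strand in NCF1, at bases -45 to -40 from the start, and in CYBB, at bases -48 to -43. In CYBB a CCAAT on the opposite strand followed directly, at -42 to -38, and 3 more lay at -230 to -226, -116 to -112 and -102 to -98. The CYBA window held neither motif. GAGGAA was found in 27.9% of the 35116 promoter windows of this length and CCAAT in 34.6%, so neither match is rare. The windows differed in CpG content, the dinucleotide that DNA methyltransferases modify. CYBB held 1 CpG, fewer than most (3.96% of all windows held fewer), NCF1 held 11 (45.3% held fewer) and CYBA held 23 (64.2% held fewer), against a median of 14. No methylation was measured on these samples.

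The labelled cell type was checked against marker genes. Of 10 myeloid and monocytic markers with a probe set, 8 lay above the array median on all 12 arrays, among them the granule genes MPO and ELANE and the lysozyme gene LYZ, while the monocyte marker CD14 lay below it on every array. Of the markers of other cell types, 2 of 4 erythroid, 2 of 7 T and B cell and 3 of 8 fibroblast and epithelial genes lay above the median on all arrays. Array medians ran from 4.69 to 4.77 and correlations within a group from 0.9956 to 0.998. Of 54613 probe sets, 28332 exceeded the array median on at least 3 arrays and were tested with limma. The median standard error of a comparison was 0.0931 log2 units, or 0.132 for the interaction. Nothing in the labels says whether arrays of the same number shared a culture, so the p-values measure the spread between these arrays. In bulk RNA a change in the share of cells that express a gene and a change in RNA per cell cannot be told apart.

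Of the 11 oxidase probe sets 9 were tested, and 8 of these lay above the array median on all 12 arrays, so that they did not depend on 1 group to pass. The ninth, CYBB probe set 233538_s_at, passed on exactly 3 arrays. The CYBB probe sets 203922_s_at and 217431_x_at passed on none and are given as values only.

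SGI-110 raised 4 of the 5 genes. NCF1, the p47phox organiser, rose most, to 2.50 times its solvent signal. CYBB (1.50-fold), RAC2 (1.31-fold and 1.25-fold on its 2 probe sets) and CYBA (1.12-fold) rose as well, and NCF4 did not pass the test. With the array number as a replicate block both NCF4 probe sets passed (limma adjusted p = 0.00718 and 0.00827). Without that block, 5 of 9 probe sets were called higher and 0 lower at a limma adjusted p under 0.05. Of all tested probe sets, 6.29% were called higher and 3.96% lower. All 9 differences were above 0, with a median of 0.29 log2 units against a median of -0.00038 over all tested probe sets. In 8 of the 9 the arrays of both groups did not overlap, which held for 31.9% of all tested probe sets. Read by gene, each from its brightest probe set, 4 of 5 were higher, where 8.2% of the 12697 genes were higher and 5.03% lower. The calls of CYBA and CYBB were both lost without solvent array 2 or 9, or without SGI-110 array 2 or 13.

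**Figure D1:**
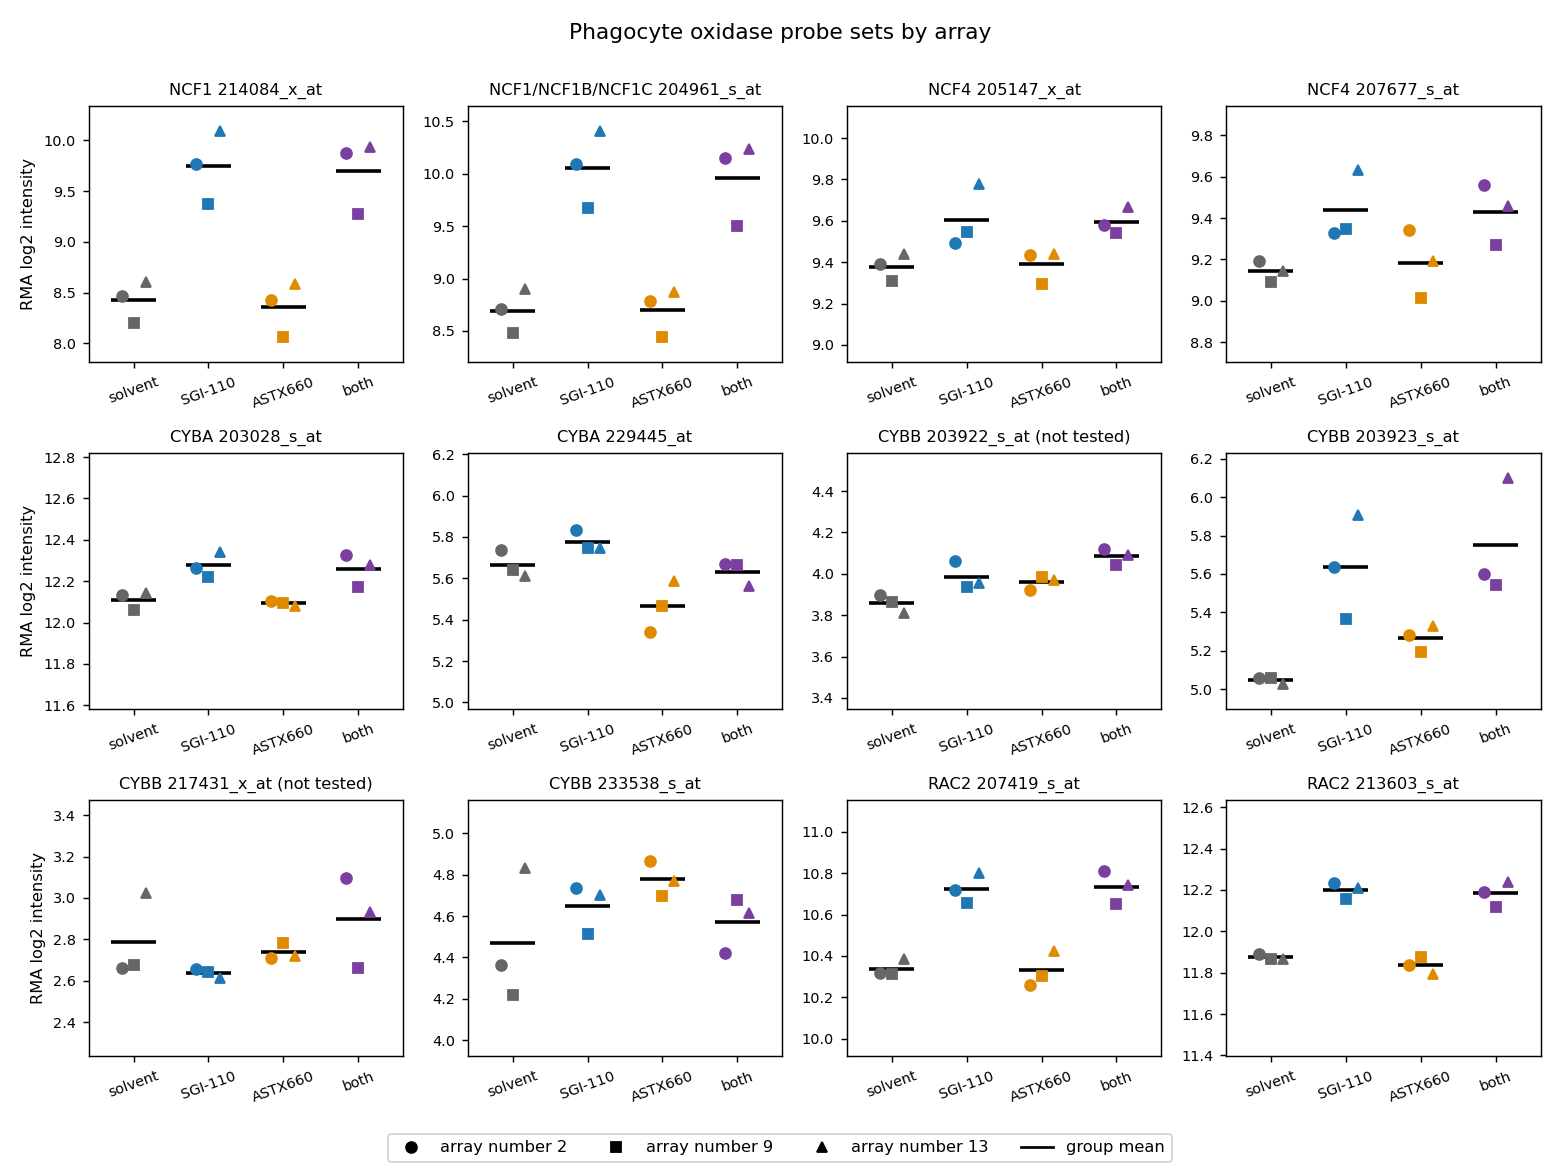
RMA log2 intensity (vertical axis) of the 11 oxidase probe sets and the probe set shared with the NCF1 pseudogenes, in the 4 treatment groups (horizontal axis), with 1 symbol for each array number and a bar at the group mean. For NCF1, RAC2, CYBA 203028_s_at and CYBB 203923_s_at, the arrays with SGI-110, alone or with ASTX660, lie above all arrays without it. The same holds for NCF4 205147_x_at, which was not called. For NCF1 the values are 9.28 to 10.10 against 8.06 to 8.60.

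A like comparison could be made in cells that had also received ASTX660, though SGI-110 is labelled 24 h there and 33 h alone. The combination against ASTX660 shares no array with SGI-110 against solvent. Both use arrays of the same numbers and the same fit, so they are not known to be independent. Again 5 of 9 probe sets were higher and 0 lower, where 6.08% of all tested probe sets were higher and 6.06% lower. They belonged to NCF1, RAC2, CYBA and CYBB, and by gene 4 of 5 were higher, where 7.58% of all genes were higher and 6.89% lower. The median difference was 0.25 log2 units against -0.01 over all probe sets, and 7 of 9 did not overlap, where 26.6% of all probe sets did not. Overlap was counted in either direction, and on CYBB 233538_s_at the combination arrays lay below all ASTX660 arrays (-0.21). Against solvent the combination also raised 5 of 9 and lowered 0, where 8.95% and 4.12% of all probe sets were called. The arrays of 7 of 9 did not overlap there, against 34.5% of all, and by gene 4 of 5 were higher, where 10.9% of genes were higher and 5.01% lower. That comparison shares its solvent arrays with SGI-110 against solvent and is not a separate repeat either.

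NCF1 was read by probe set 214084_x_at. Solvent arrays 2, 9 and 13 stood at 8.47, 8.20 and 8.60, and the SGI-110 arrays at 9.76, 9.37 and 10.10. The ASTX660 arrays stood at 8.42, 8.06 and 8.59, and the combination arrays at 9.88, 9.28 and 9.93. Every array with SGI-110 thus lay above every array without it, by at least 0.67 log2 units, and the array numbered 9 was the lowest of its group in all 4 groups. Means were 8.42 ± 0.207 (SD, n = 3) for solvent and 9.74 ± 0.362 (SD, n = 3) for SGI-110. The difference was 1.32 log2 units (SE 0.196, 95% interval 0.90 to 1.74, limma adjusted p = 0.000792). It was 1.34 for the combination against ASTX660 (2.53-fold, limma adjusted p = 0.000681) and 1.27 for the combination against solvent (2.42-fold, limma adjusted p = 0.000919). Within a number, the SGI-110 difference ran from 1.18 to 1.49 against solvent and from 1.22 to 1.46 against ASTX660.

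The probe set that lists NCF1 with NCF1B and NCF1C, 204961_s_at, went the same way. Its solvent arrays stood at 8.71, 8.48 and 8.90 for numbers 2, 9 and 13, and its SGI-110 arrays at 10.09, 9.67 and 10.41. It rose by 1.36 log2 units with SGI-110 (2.57-fold, limma adjusted p = 0.000734) and by 1.27 in the combination against ASTX660 (2.40-fold, limma adjusted p = 0.00122). The pseudogenes are near copies of NCF1, and the probe set given to NCF1 alone may read them too, so how much of either rise comes from each of the 3 loci was not tested.

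RAC2, the GTPase, was read by 2 probe sets that gave like differences. On 213603_s_at the solvent arrays lay between 11.87 and 11.89 and the SGI-110 arrays between 12.16 and 12.23. The ASTX660 arrays lay between 11.79 and 11.88 and the combination arrays between 12.12 and 12.24. Neither SGI-110 group overlapped either group without it, and the spread within a group was at most 0.0611 (SD, n = 3). The rise was 0.32 log2 units with SGI-110 (SE 0.0375, 95% interval 0.24 to 0.40, limma adjusted p = 0.000113) and 0.35 in the combination against ASTX660 (limma adjusted p = 7.23e-05). On 207419_s_at the means were 10.34 for solvent, 10.72 for SGI-110, 10.33 for ASTX660 and 10.73 for the combination. That probe set rose by 0.39 (SE 0.0579, limma adjusted p = 0.000863) and by 0.40 (limma adjusted p = 0.000598) in the same comparisons.

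CYBB, the catalytic chain, was read close to the array median. On 203923_s_at solvent arrays 2, 9 and 13 stood at 5.06, 5.06 and 5.03, and the SGI-110 arrays at 5.64, 5.37 and 5.91. The ASTX660 arrays stood at 5.28, 5.19 and 5.33, and the combination arrays at 5.60, 5.54 and 6.10. The arrays with SGI-110 were spread more widely (SD 0.27 and 0.306) than those of solvent (SD 0.0194), with number 13 highest in both. The difference was 0.59 log2 units with SGI-110 (SE 0.145, 95% interval 0.28 to 0.90, limma adjusted p = 0.0187), 0.48 in the combination against ASTX660 (1.40-fold, limma adjusted p = 0.0453) and 0.70 in the combination against solvent (1.63-fold, limma adjusted p = 0.00603). In the comparison of SGI-110 with solvent CYBB no longer passed once solvent array 2, 9 or 13 was left out (adjusted p = 0.0536, 0.0581 and 0.0561), nor once array 2 or 13 of SGI-110 was (0.0616 and 0.0886), over a range of 0.00135 to 0.0886 among all alternatives by limma. The call in the combination against ASTX660 was lost in 13 of 19 alternatives (limma adjusted p from 0.0058 to 0.181), and without combination array 13 the difference was 0.30.

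The other CYBB probe sets lay lower. On 233538_s_at SGI-110 against solvent gave 0.18 (limma adjusted p = 0.501) and the combination against ASTX660 gave -0.21 (limma adjusted p = 0.384), so this probe set did not repeat the rise. Its solvent arrays ran from 4.22 to 4.83, a spread wider than the difference of SGI-110 against solvent. The combination arrays (4.42 to 4.68) all lay below the ASTX660 arrays (4.70 to 4.86). The probe set 203922_s_at, never above the array median, went from a solvent mean of 3.86 ± 0.0455 (SD, n = 3) to 3.98 ± 0.068 with SGI-110, 3.96 ± 0.0332 with ASTX660 and 4.08 ± 0.0397 with both. On 217431_x_at all arrays lay between 2.61 and 3.10, with group means of 2.79 (solvent), 2.64 (SGI-110), 2.74 (ASTX660) and 2.90 (combination). The CYBB result thus rests on 1 of 4 probe sets.

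CYBA, the membrane partner of CYBB, rose little on its bright probe set. On 203028_s_at solvent arrays 2, 9 and 13 stood at 12.13, 12.06 and 12.14, and the SGI-110 arrays at 12.27, 12.22 and 12.34. The ASTX660 arrays lay between 12.08 and 12.11 and the combination arrays between 12.17 and 12.33. The groups with SGI-110 did not overlap those without it, though the lowest array with SGI-110 was only 0.0316 above the highest array without it. The difference was 0.17 log2 units with SGI-110 (SE 0.0428, 95% interval 0.07 to 0.26, limma adjusted p = 0.0238) and 0.17 in the combination against ASTX660 (limma adjusted p = 0.0208). Against solvent CYBA no longer passed once array 2 or 9 of solvent (adjusted p = 0.0524 and 0.106) or array 2 or 13 of SGI-110 was left out (0.0616 and 0.109) and in limma without a variance trend (0.12), over a range of 0.00154 to 0.12. In the combination against ASTX660 it was lost without ASTX660 array 9 or 13 (0.0564 and 0.0521), without combination array 2 or 13 (0.0955 and 0.073) and in the limma fits without a trend (0.101) or on those groups alone (0.0521), over a range of 0.00131 to 0.101. In the combination against solvent the difference was 0.15 (limma adjusted p = 0.0332), and the call was lost in 8 of 19 alternatives (limma adjusted p from 0.00299 to 0.137), among them each solvent array and combination array 2 or 13 left out. The dim probe set 229445_at did not pass with SGI-110 (0.11 log2 units, limma adjusted p = 0.486) or in the combination against ASTX660 (0.17, limma adjusted p = 0.222).

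NCF4, encoding p40phox, was the gene of the 5 not called. On 205147_x_at solvent arrays 2, 9 and 13 stood at 9.39, 9.31 and 9.44, and the SGI-110 arrays at 9.49, 9.54 and 9.78. The ASTX660 arrays stood at 9.43, 9.29 and 9.44, and the combination arrays at 9.58, 9.54 and 9.66. Here too the SGI-110 arrays lay above all solvent arrays, by 0.0509 at the nearest. Every array with SGI-110, alone or with ASTX660, lay above every array without it, by at least 0.0505. The differences were 0.23 log2 units with SGI-110 (95% interval 0.06 to 0.39, limma adjusted p = 0.0754) and 0.20 in the combination against ASTX660 (0.04 to 0.37, limma adjusted p = 0.0963). The second probe set, 207677_s_at, gave 0.29 (limma adjusted p = 0.0771) and 0.25 (limma adjusted p = 0.127). With the array number as a replicate block, which the pairing check allows for SGI-110 against solvent, both probe sets passed there (limma adjusted p = 0.00718 and 0.00827), and the count of oxidase probe sets called higher went from 5 to 7. In SGI-110 against solvent quantile normalization also called both (limma adjusted p = 0.0412 and 0.0455), and the range among alternatives was 0.00718 to 0.302. The numbers also passed the pairing check for the combination against solvent, though narrowly for numbers 2 and 9. Deviations from the group mean correlated there at 0.124, 0.109 and 0.509 for numbers 2, 9 and 13, against a limit of 0.1. The block again called both NCF4 probe sets in that comparison (limma adjusted p = 0.00886 and 0.00902).

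**Figure D2:**
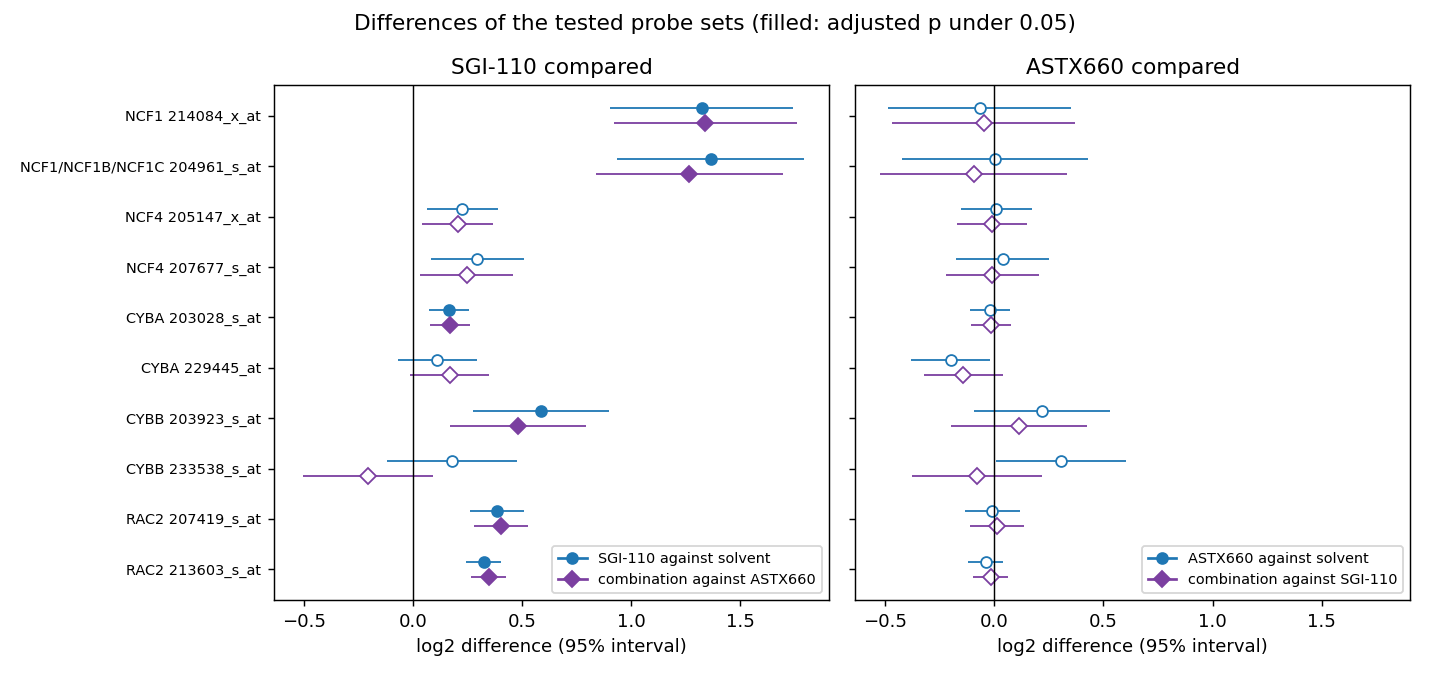
Log2 difference (horizontal axis) with its 95% interval for the 9 tested oxidase probe sets and the probe set shared with the NCF1 pseudogenes (vertical axis). In the left panel, for SGI-110, the differences of NCF1 and of the probe set shared with its pseudogenes, from 1.27 to 1.36, stand apart from the others, which run from -0.21 to 0.59, and in the right panel, for ASTX660, no symbol is filled.

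The SGI-110 difference was also taken between arrays of the same number, as a description, since the numbers are not taken as pairs against ASTX660. RAC2 213603_s_at gave 0.34, 0.29 and 0.34 for numbers 2, 9 and 13 against solvent and 0.35, 0.24 and 0.45 against ASTX660. CYBB 203923_s_at gave 0.58, 0.31 and 0.88 against solvent and 0.32, 0.35 and 0.77 against ASTX660, so that number 13 showed the largest CYBB difference in both. NCF4 207677_s_at gave 0.13, 0.26 and 0.49 against solvent but 0.22, 0.26 and 0.26 against ASTX660. Without SGI-110 array 13 the NCF4 differences against solvent were 0.14 and 0.20.

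**Figure D3:**
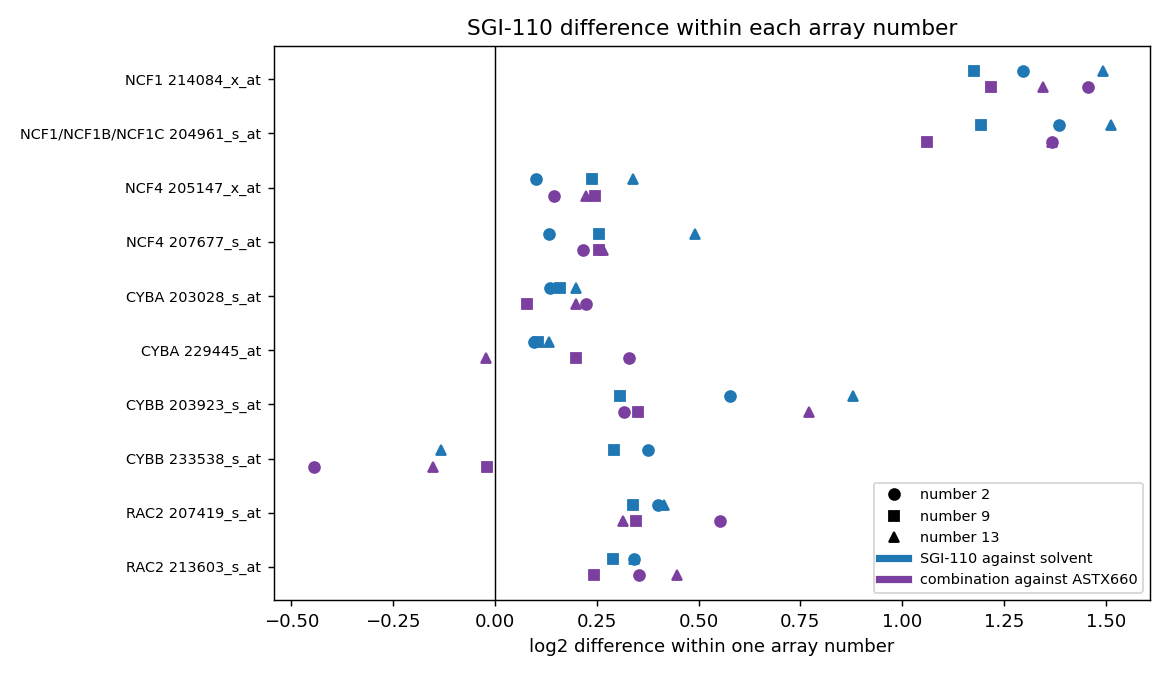
Log2 difference between the array with SGI-110 and the array without it of the same number (horizontal axis), for each tested probe set (vertical axis), by array number (symbol) and by comparison (colour). All 6 points of NCF1, NCF4, RAC2, CYBA 203028_s_at and CYBB 203923_s_at lie above 0, while CYBA 229445_at has 1 point below it (-0.02) and CYBB 233538_s_at has 4.

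ASTX660 left no oxidase probe set called. Against solvent limma called 0 of 9, and 2 of 9 had an unadjusted p under 0.05, where 0% of all tested probe sets were called and 7.9% had such a p. The probe sets with such a p were the dim CYBA 229445_at, at -0.20 (limma adjusted p = 0.626), and CYBB 233538_s_at, at 0.31 (limma adjusted p = 0.627). NCF1 stood at -0.07 with a 95% interval of -0.49 to 0.35, so with 3 arrays a group any change within these bounds is compatible with the data. The interval was narrower for RAC2 213603_s_at (-0.12 to 0.04) and CYBA 203028_s_at (-0.11 to 0.07). The groups did not overlap in 2 of 9, CYBA 229445_at and CYBB 203923_s_at, where 12.8% of all tested probe sets did not. On CYBB 203923_s_at the ASTX660 arrays lay above all solvent arrays, by 0.22 log2 units on average (95% interval -0.09 to 0.53, limma adjusted p = 0.716).

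Adding ASTX660 after SGI-110 gave the same picture. The combination against SGI-110 had 0 of 9 called and 0 of 9 at an unadjusted p under 0.05, where 0% of all tested probe sets were called by limma and 3.04% had such a p. In 1 of 9 the groups did not overlap, against 8.66% of all tested probe sets. NCF1 differed by -0.05 (95% interval -0.47 to 0.37), RAC2 213603_s_at by -0.02 (-0.10 to 0.06) and CYBB 203923_s_at by 0.11 (-0.20 to 0.42). The interaction, which asks whether the SGI-110 difference changed when ASTX660 was present, was also called in 0 of 9 by limma, with 0 of 9 at an unadjusted p under 0.05 and 2.11% of all probe sets at such a p. For NCF1 it was 0.02 (95% interval -0.58 to 0.61) and for RAC2 213603_s_at 0.02 (-0.09 to 0.14). The NCF1 interval is thus far wider than the RAC2 interval. In the combination against SGI-110 and in the interaction the labelled SGI-110 time also differed, 33 h alone and 24 h in the combination.

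Genes around the oxidase were read from 6 lists, each gene from its brightest probe set, and may be set against the 8.2% of tested genes that rose and the 5.03% that fell with SGI-110. ASTX660 against solvent called 0 genes in each list by limma, as it did among all genes. Among 12 tested partners and homologues 1 rose with SGI-110 and 0 fell, with a median of 0.03 log2 units against 0.00047 over all tested genes. The gene that rose was HVCN1, the voltage-gated proton channel that balances the charge the oxidase moves. Its mean went from 8.39 with solvent to 8.90 with SGI-110, a difference of 0.51 (1.42-fold, limma adjusted p = 0.000985), and it differed by 0.53 in the combination against ASTX660 (limma adjusted p = 0.000692). RAC1, the widely expressed relative of RAC2, stood at 0.11 (limma adjusted p = 0.0645), and the related GTPase genes CDC42 and RHOA at 0.15 (0.179) and 0.05 (0.402). CYBC1, a chaperone of the CYBB protein, stood at -0.03 (0.833). ARHGDIA and ARHGDIB, which hold Rac in the cytosol, stood at -0.0025 (0.99) and 0.02 (0.791), and RAP1A, a GTPase found with cytochrome b558, at 0.09 (0.286). The homologues NOX1 (-0.13, adjusted p = 0.44) and NOX5 (-0.07, 0.808), the activator homologue NOXA1 (0.19, 0.353) and the maturation factor DUOXA2 (-0.05, 0.844) did not pass in limma either, and NOX3, NOX4, DUOX1, DUOX2 and NOXO1 were too dim to test. The count was 3 with the replicate block, and 2 after quantile normalization or without ASTX660 array 2.

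The receptors that trigger the burst moved most among these lists. Of 19 tested, 7 rose and 0 fell, with a median of 0.31 log2 units. TYROBP, a signalling adaptor of myeloid receptors, rose by 1.00 (2.00-fold, limma adjusted p = 5.44e-05), and ITGB2, the shared chain of the leukocyte integrins, by 0.54 (1.46-fold, limma adjusted p = 0.0109). The interferon-gamma receptor genes IFNGR1 and IFNGR2 rose by 0.45 (limma adjusted p = 0.00071) and 0.32 (limma adjusted p = 0.00618). FCER1G, the adaptor of Fc receptors, was named after its values were seen and rose by 0.90 (limma adjusted p = 0.0209). In the combination against ASTX660 9 of 19 rose and 0 fell, where 7.58% of all tested genes rose and 6.89% fell. The count in SGI-110 against solvent was 12 with the replicate block, 4 without array 9 of solvent and 3 without array 13 of SGI-110.

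Signalling genes that assemble the enzyme showed little movement. Of 24 tested, 1 rose and 0 fell, with a median of 0.03 log2 units. PRKCD, a protein kinase C that phosphorylates p47phox, rose by 0.32 (1.24-fold, limma adjusted p = 0.0163), and by 0.39 in the combination against ASTX660 (limma adjusted p = 0.00493). PREX1, a Rac exchange factor (0.23, limma adjusted p = 0.0778), the kinase gene MAPK3 (0.18, 0.135) and PIK3CG, a lipid kinase gene (-0.24, 0.136), did not pass. No gene of this list was called without solvent array 9 or without SGI-110 array 13, and the replicate block called 2 higher and 4 lower.

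The list of transcription factors of oxidase genes held few calls. It also holds the phosphatase gene PTPN11, the coactivator gene CREBBP and the general factor gene TBP. Of 17 tested, 2 rose and 1 fell, where 8.2% of all tested genes rose and 5.03% fell, with a median of 0.05 log2 units. IRF8, a factor of monocytic cells that is known to act on CYBB, fell by 0.42 log2 units with SGI-110 (1.33-fold, limma adjusted p = 0.000867) and by 0.39 in the combination against ASTX660 (limma adjusted p = 0.00146). CEBPE, a granulocytic factor, rose by 0.50 (limma adjusted p = 0.0486) but was not called in the combination against ASTX660 (0.28, limma adjusted p = 0.254). CEBPA rose by 0.17 (limma adjusted p = 0.0337) and by 0.16 (limma adjusted p = 0.0377) in these comparisons, while CEBPB stood at 0.25 with SGI-110 (limma adjusted p = 0.204). SPI1, encoding PU.1 and named after its values were seen, stood at 0.16 (limma adjusted p = 0.513) with SGI-110 and 0.33 (limma adjusted p = 0.117) in the combination against ASTX660. Without solvent array 2, 9 or 13, without SGI-110 array 9 or 13, or without the brightness filter, 1 gene of the list was called, a lower one in each case.

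**Figure D4:**
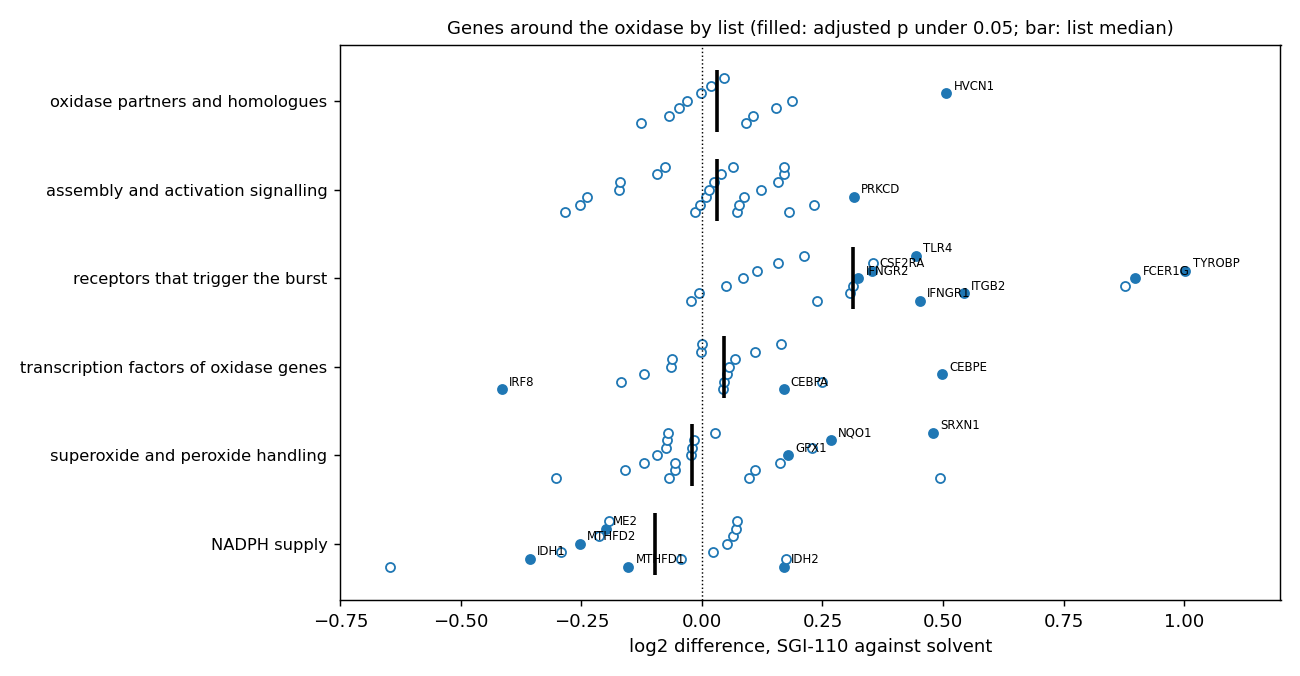
Log2 difference of SGI-110 against solvent (horizontal axis) for each tested gene of 6 lists around the oxidase (vertical axis), with filled symbols for genes called by limma and a bar at the list median. The receptor list has its median at 0.31 and 7 filled genes, while the medians of the other lists lie between -0.10 and 0.05.

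Genes that handle superoxide and peroxide, and those that supply NADPH, did not move as a block. Of 22 tested handling genes 3 rose and 0 fell, with a median of -0.02 log2 units. SRXN1, which repairs oxidised peroxiredoxins, rose by 0.48 (limma adjusted p = 0.000338), the quinone reductase gene NQO1 by 0.27 (0.027) and the glutathione peroxidase gene GPX1 by 0.18 (0.0429), while the catalase gene CAT stood at 0.16 (0.0755). The count was 1 once array 2 of solvent or array 2 or 13 of SGI-110 was left out, and 8 with the replicate block (6 higher, 2 lower). Of 16 NADPH supply genes 1 rose and 4 fell, with a median of -0.10. IDH1, a cytosolic isocitrate dehydrogenase, fell by 0.36 (limma adjusted p = 0.00918), the folate enzyme gene MTHFD2 by 0.25 (0.00234), the malic enzyme gene ME2 by 0.20 (0.0133) and MTHFD1, named after its values were seen, by 0.15 (0.0445), and the mitochondrial IDH2 rose by 0.17 (0.0336). That count of 5 was 2 without solvent array 2 or 13, 3 without array 9 of solvent or array 2 or 13 of SGI-110, 3 with no brightness filter or after median centring, and 10 with the replicate block (2 higher, 8 lower). In the combination against ASTX660 5 of 22 handling genes rose and 1 fell, and 1 of 16 supply genes rose and 4 fell. Of all tested genes 7.58% rose there and 6.89% fell. CAT was called there (0.22, limma adjusted p = 0.0194), while ME2 was not (-0.13, limma adjusted p = 0.0787).

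Some markers of myeloid cells moved in the same arrays. The mean level of the 10 myeloid and monocytic markers was 9.23 with solvent, 9.50 with SGI-110, 9.21 with ASTX660 and 9.52 with both, and ran from 9.11 to 9.59 over single arrays. Of 9 tested, 4 rose with SGI-110, 0 fell and 5 were not called, where 8.2% of all tested genes rose and 5.03% fell. Those that rose were PTPRC, the pan-leukocyte CD45 gene (0.69, limma adjusted p = 0.0131), CSF1R, the macrophage growth factor receptor gene (0.52, 0.0234), LYZ (0.24, 0.0187) and CEBPA, which is also in the factor list. In the combination against ASTX660 3 of 9 rose and 0 fell, where 7.58% of all tested genes rose and 6.89% fell. LYZ was not called there (0.18, limma adjusted p = 0.0676). With SGI-110 alone, of the others, named after their values were seen, the integrin gene ITGAM stood at 0.88 (limma adjusted p = 0.118), and the primary granule genes MPO and ELANE at -0.06 (0.782) and -0.07 (0.353). Among the erythroid, T and B cell, and fibroblast and epithelial markers 0 of 3, 0 of 3 and 0 of 3 tested genes were called by limma with SGI-110. In the combination against ASTX660, PDGFRB, a mesenchymal growth factor receptor gene of the last list, rose by 0.38 (limma adjusted p = 0.0284). The group means of the 3 lists were 5.77 and 5.72, 4.65 and 4.63, and 4.42 and 4.42 with solvent and SGI-110. The part of a general shift in myeloid genes in the oxidase differences was not tested.

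For each gene that was called, the 3 genes with the most similar profile over the 12 arrays were found among the 12696 other tested genes, by the root-mean-square difference after each profile was centred on its own mean. For NCF1 these were TREM2, a myeloid receptor that signals through TYROBP (0.121 log2 units), ALOX5AP, the activator of leukotriene synthesis (0.141), and the actin gene ACTA2 (0.167), where NCF1 itself varied by 0.712 about its mean. TREM2 rose by 1.29 with SGI-110 (limma adjusted p = 0.00176) and ALOX5AP by 1.17 (limma adjusted p = 0.000495). Both were picked for profiles close to that of NCF1, so a rise like that of NCF1 follows from the choice. For CYBB they were JUN (0.0979), GAS2L1 (0.105) and the hexokinase gene HK1 (0.117), against 0.328 for CYBB itself. For RAC2 they were PLBD2 (0.0463), CDC42EP3 (0.0463) and the tyrosine kinase gene FES (0.0488), against 0.172. For CYBA they were PET100 (0.0293), CD2BP2 (0.0295) and SLC75A1 (0.0313), against 0.095. None of these 3 genes near CYBA was called with SGI-110 (limma adjusted p = 0.0507, 0.0656 and 0.268).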

How the data were processed

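RNA of ML-2 cells was profiled on 12 arrays. Per the labels' protocols, 100 ng of total RNA gave biotin-labelled cRNA. The authors deposited RMA log2 intensities made with the affy package, per the submitters' processing notes. Whether 1 run normalized all arrays was not given in the sources used here. They were used without further transformation. RMA compresses large ratios, and more so for dim probe sets.

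Of 54675 probe sets, 62 controls were left out. The platform annotation gave 1 symbol to 41091. Probe sets above the array median on at least 3 arrays were tested with limma 3.58.1 in R 4.3.3, with 1 mean for each group, a variance trend on intensity, and p-values adjusted by Benjamini-Hochberg over the 28332 tested in each comparison. The fit had 8 residual and 6.11 median prior degrees of freedom. It was checked on simulated data. The number of arrays limits the precision.

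The oxidase genes, lists and tests were chosen with earlier results of these data known. Named list genes were all tested partners and homologues and the 4 smallest adjusted p of each other list in SGI-110 against solvent, plus the 3 nearest profiles of each called gene. Array numbers were taken as pairing samples where deviations from the group mean correlated above 0.1 for every number. For numbers 2, 9 and 13 they were 0.346, 0.297 and 0.531 in SGI-110 against solvent but 0.0747, 0.0618 and 0.514 in the combination against ASTX660, where the numbers are not taken as pairs. Alternatives were no brightness filter, the replicate block, 2 scalings, 1 probe set for each gene, no trend, only the groups compared, and each array left out in turn.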

Additional observations from a re-analysis of the deposited data

How the results depend on the processing

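Across all alternatives no called oxidase difference changed sign. Calls of single oxidase probe sets kept their side of the threshold in 149 of 164 cases for SGI-110 against solvent, in 142 of 164 for the combination against ASTX660 and in 149 of 164 for the combination against solvent, and the other 3 comparisons kept 0 calls throughout. The cases that moved were all of CYBA, CYBB and NCF4, while NCF1 and RAC2 were called in every alternative of these 3 comparisons. Leaving out 1 array moved the 5 called probe sets to between 3 and 5 for SGI-110 against solvent (3 without array 2 or 9 of solvent, or array 2 or 13 of SGI-110), to between 3 and 6 for the combination against ASTX660 (3 without ASTX660 array 9 or 13, or combination array 2 or 13) and to between 4 and 7 for the combination against solvent. The combination against ASTX660 also gave 3 with no variance trend and with only the groups compared. The replicate block gave 7 in all 3 comparisons and changed no oxidase call other than those of NCF4. For the combination against solvent, 68.5% of all calls were higher, or 79.4% after median centring and 54.3% after quantile normalization, and no scaling moved the median of all probe sets by over 0.1. The cause of these shifts was not tested. CYBB and the dim CYBA probe set lie near the array median, where RMA understates ratios.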
